A study of Mus musculus with 32 samples.

Results

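The genes of antigen presentation on major histocompatibility complex (MHC) class II were followed through subdural CNS-associated macrophages (sdCAMs) and whole brain tissue 1 day after thromboembolic stroke. The group held 9 genes, taken by symbol from the 33280 genes of each count table, and all 9 passed the filter on low counts in both tables. They were the class II chains H2-Aa, H2-Ab1 and H2-Eb1, the invariant chain Cd74, the peptide-loading subunits H2-DMa and H2-DMb1, the transactivator Ciita, and the costimulatory ligands Cd86 and Cd80.

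A class II molecule is a pair of an α and a β chain that carries a peptide from the endosome to the cell surface, where CD4+ T cells read it. The invariant chain Cd74 holds the groove until the H2-DM heterodimer exchanges its last fragment for peptide, and Ciita switches on the chains, Cd74 and H2-DM together. Cd86 and Cd80 bind CD28 on the T cell and give the second signal of activation. At the borders of the brain, high class II has been linked to macrophages that came from bone marrow (haematopoietic stem cell, HSC) rather than from the yolk sac.

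All mice were wild-type C57BL/6JCrl animals of both sexes, and the labels give no age. BLZ945, an inhibitor of the receptor CSF1R on which microglia and CAMs depend, was given by gavage at 200 mg/kg daily for 7 days, whereas CTL mice received vehicle. Stroke was induced in every mouse 8 weeks later by thrombin injected into the middle cerebral artery, and both hemispheres were taken at 24 h. The 8 mice (4 per treatment) gave 32 libraries, a tissue and an sdCAM library from the ipsilateral (lesioned) and the contralateral hemisphere. There was no mouse without stroke, so the contralateral hemisphere was the only reference for the lesion. The sdCAMs were sorted as CD206+CD45+CD11b+ cells negative for Ly6C, Ly6G and CD11c, with the choroid plexus removed. The gate on CD11c acts against dendritic cells, but how far it took them away was not tested. Markers of dendritic cells and of choroid plexus were still detected in the sdCAM libraries, at levels given below.

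Total counts were 7397393 to 11081409 per sdCAM library used and 9288717 to 12781505 per tissue library. Ipsilateral sdCAMs of A3 (CTL) and C2 (BLZ945) gave only 54055 and 55155 counts and were left out, so the groups were 4 CTL contralateral, 3 CTL ipsilateral, 4 BLZ945 contralateral and 3 BLZ945 ipsilateral sdCAM libraries. For tissue of mouse A3 the sample labels and the count table disagree on the hemisphere, and the sample labels were followed. All 9 markers of border macrophages were detected in the sdCAM libraries, with a summed level of 10709 to 36985 CPM (library-size-scaled counts, with factors from the trimmed mean of M values, TMM). All 7 markers of microglia were detected there too, at 7234 to 28062 CPM, so the sort was not free of microglial RNA. In CTL the microglial sum was above that of border macrophages in A2 ipsilaterally (21870 and 20909 CPM). The same held for A3 (15952 and 12730 CPM) and A4 (17559 and 15724 CPM) contralaterally, and for no BLZ945 library. A gene counted as called when edgeR's two-sided quasi-likelihood test gave an adjusted p under 0.05 (Benjamini-Hochberg, over all genes tested) together with a log2 fold change larger than 0.59.

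Promoters of class II genes carry a shared module whose Y box has the core GATTGG, and the windows of 3 genes are shown because they hold the letters that chains and H2-DM share. RefSeq windows (GRCm38.p6) could be matched for 5 of the 9 genes, and those of H2-Ab1, Cd74, Ciita and Cd86 are named only. The 130 bases upstream of the start are given 5′ to 3′ on the gene's strand, with the Y-box core on either strand and a run of 13 bases common to H2-Eb1 and H2-DMb1 in capitals. H2-Aa lies at chr17:34287824-34287953 (minus strand), H2-Eb1 at chr17:34305737-34305866 (plus) and H2-DMb1 at chr17:34153061-34153190 (plus).
H2-Aa: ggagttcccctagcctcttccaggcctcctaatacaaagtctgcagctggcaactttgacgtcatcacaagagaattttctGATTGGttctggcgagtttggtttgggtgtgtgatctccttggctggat
H2-Eb1: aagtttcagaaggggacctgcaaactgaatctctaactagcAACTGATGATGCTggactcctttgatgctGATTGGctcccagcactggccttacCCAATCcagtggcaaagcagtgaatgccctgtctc
H2-DMb1: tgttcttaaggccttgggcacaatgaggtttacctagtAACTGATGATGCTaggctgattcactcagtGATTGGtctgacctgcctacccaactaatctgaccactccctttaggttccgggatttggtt
The core began 49 bases upstream in H2-Aa, 60 bases upstream in H2-Eb1 and 62 bases upstream in H2-DMb1, and H2-Eb1 carried another on the reverse strand 35 bases upstream. It was found on either strand in 14.6% of 32851 windows of 250 upstream bases. The run AACTGATGATGCT was chosen as the longest stretch shared by the H2-Eb1 and H2-DMb1 bases shown, so its presence in both was fixed beforehand. It was found in 2 of the windows (0.00609%), those of H2-Eb1 and H2-DMb1. Other runs of 13 bases were not counted for comparison, so this share does not mark the run as particular to class II genes. In H2-DMa the core was present in 1 of both windows, 199 bases upstream, and Cd80 had none in its window. These matches describe letters and not binding.

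Within sdCAMs the genes spanned a wide range of levels. Per kb of exon (GENCODE M21 models), the median over 14 libraries was 2855 CPM for Cd74, 749 for H2-Ab1, 477 for H2-Eb1 and 315 for H2-Aa. It was 126 CPM per kb for Cd86, 112 for H2-DMb1, 81.1 for H2-DMa, 5.46 for Cd80 and 1.96 for Ciita. The ranges over libraries of Cd86, H2-DMb1 and H2-DMa overlapped, as did those of the class II chains. H2-Eb1 was transcribed although the b haplotype of these mice makes no H2-Ea chain to pair with it, and H2-Ea held 0 to 2 counts per sdCAM library.

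**Figure D1:**
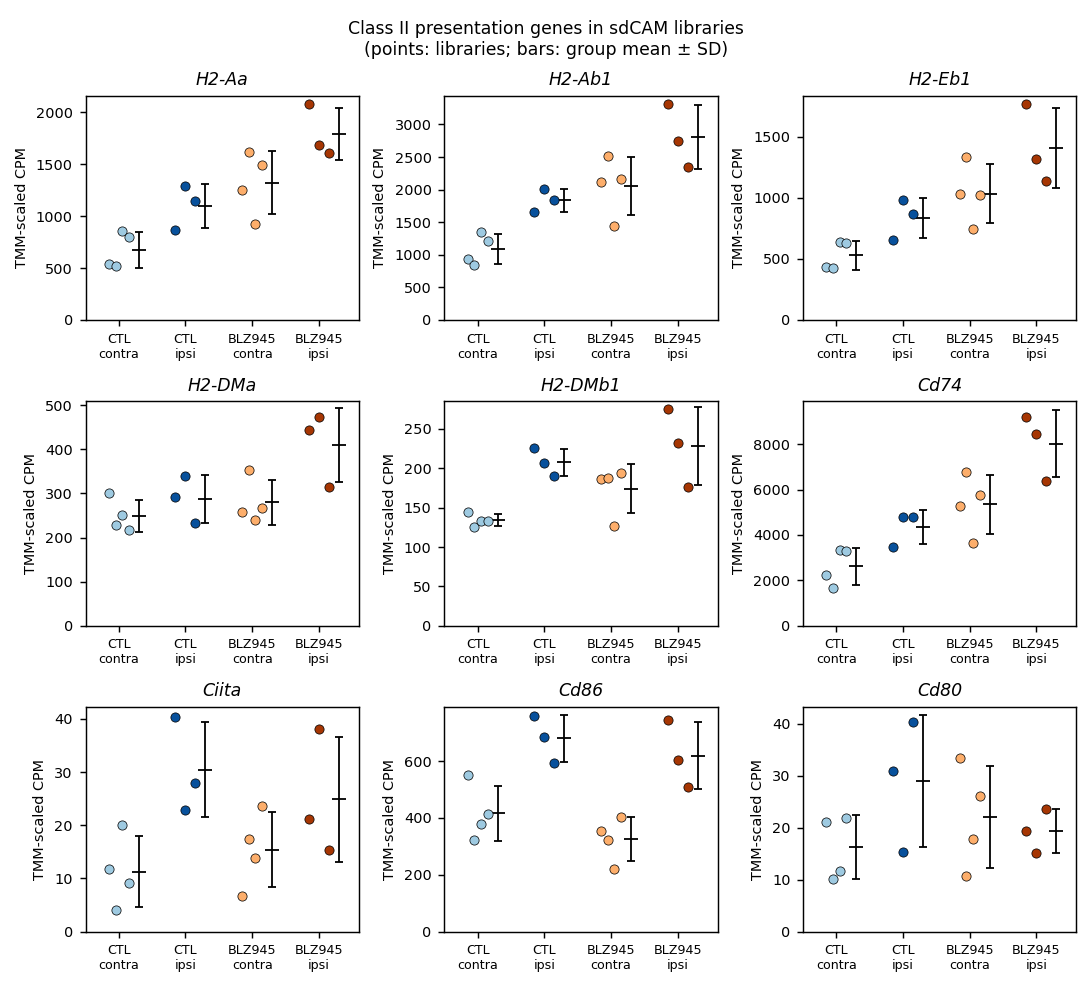
Level of each of the 9 genes in the 14 sdCAM libraries (TMM-scaled CPM, linear axes from 0), by treatment and hemisphere; points are libraries and bars the group mean ± SD. For H2-Aa, H2-Ab1, H2-Eb1 and Cd74 the lowest BLZ945 library lay above the highest CTL library of the same hemisphere.

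The treatment comparison asked whether repopulated sdCAMs carried more class II than control sdCAMs. The 3 class II chains and Cd74 were 1.89-fold to 2.04-fold higher in BLZ945 than in CTL sdCAMs of the contralateral hemisphere, and no BLZ945 library overlapped a CTL library for any of these 4 genes. None of them passed the threshold after adjustment over all genes in edgeR.

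H2-Aa encodes the α chain of I-A. Its contralateral level was 539.8, 518, 855 and 798 CPM in CTL mice A2, A3, A4 and B1, and 1249, 1621, 929 and 1493 CPM in BLZ945 mice C2, C3, C4 and D1. The groups did not overlap, with means of 678 ± 174 (SD, n = 4) and 1323 ± 305 CPM (SD, n = 4). The log2 fold change was 0.96 ± 0.22 (SE) in edgeR, with an unadjusted p of 0.000588 and an adjusted p of 0.759.

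H2-Ab1 encodes the β chain that pairs with it. Contralateral CTL libraries had 939, 849, 1357 and 1210.4 CPM, and BLZ945 libraries 2124, 2511, 1446 and 2168 CPM. Mouse C4 was again the lowest of the BLZ945 group and again above every CTL library. The log2 fold change was 0.92 ± 0.21 (SE; edgeR adjusted p = 0.759).

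H2-Eb1 encodes the β chain of I-E. It had 435, 423, 635 and 634 CPM in CTL and 1034, 1336, 744 and 1021 CPM in BLZ945 contralateral libraries. The difference was 0.96 ± 0.23 (SE) on the log2 scale, without overlap and with the same edgeR adjusted p of 0.759. H2-Eb1 overlaps the antisense gene Gm20513, which libraries without strand cannot separate from it.

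Cd74, the invariant chain, was the most abundant of the 9 per kb. Its contralateral level was 2258, 1649.6, 3328 and 3274 CPM in CTL and 5275, 6771, 3640.1 and 5737 CPM in BLZ945. The group means were 2627 ± 817 and 5356 ± 1304 CPM (SD, n = 4 each). The log2 fold change of 1.03 ± 0.25 (SE) was the largest among the 9 in this comparison, at an edgeR adjusted p of 0.759.

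Of the 9 genes, 4 were higher in every contralateral BLZ945 library than in every CTL library, a pattern shown by 1.45% of all genes tested. An unadjusted p under 0.05 with a higher level was reached by the same 4 of 9, against 3.34% of all genes. edgeR called 0 genes higher (0%) in this contrast, with 1133 of 18297 genes at an unadjusted p under 0.05 in either direction. DESeq2's Wald test called 44 genes there, among them H2-Aa at an adjusted p of 0.00644, H2-Ab1 at 0.00359, H2-Eb1 at 0.00854 and Cd74 at 0.0102. The direction of these 4 genes held under all 14 alternatives, with log2 fold changes of 0.85 to 1.31 for H2-Aa, 0.81 to 1.28 for H2-Ab1, 0.81 to 1.32 for H2-Eb1 and 0.88 to 1.40 for Cd74.

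The other 5 genes did not share this difference. H2-DMa and H2-DMb1, the subunits that load the peptide, had log2 fold changes of 0.17 ± 0.19 and 0.38 ± 0.18 (SE; edgeR adjusted p = 0.988 and 0.759). H2-DMb1 had 144, 125, 134 and 133 CPM in CTL and 187, 188, 127 and 194 CPM in BLZ945, so that C4 alone fell among the CTL libraries. Reads of H2-DMb1 could be shared with its near-identical neighbour H2-DMb2, and H2-DMa overlaps Brd2 on the opposite strand in libraries without strand, so both values are uncertain.

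Ciita was low, at 43 to 322 counts per library, and its contralateral levels of 11.8, 4.16, 20.1 and 9.18 CPM in CTL and 6.71, 17.4, 13.8 and 23.6 CPM in BLZ945 overlapped. The log2 fold change was 0.44 ± 0.50 (SE; edgeR adjusted p = 0.987), an error wide enough to hold the change of the chains. Ciita also overlaps Dexi on the opposite strand, whose reads cannot be told apart here.

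Cd86 had 552, 323, 378 and 414 CPM in CTL and 353, 323, 219 and 405 CPM in BLZ945 contralateral libraries, a log2 fold change of -0.36 ± 0.21 (SE; edgeR adjusted p = 0.801). Its libraries overlapped widely. Cd80, with 104 to 377 counts per library, had a log2 fold change of 0.44 ± 0.43 (SE; edgeR adjusted p = 0.967).

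**Figure D2:**
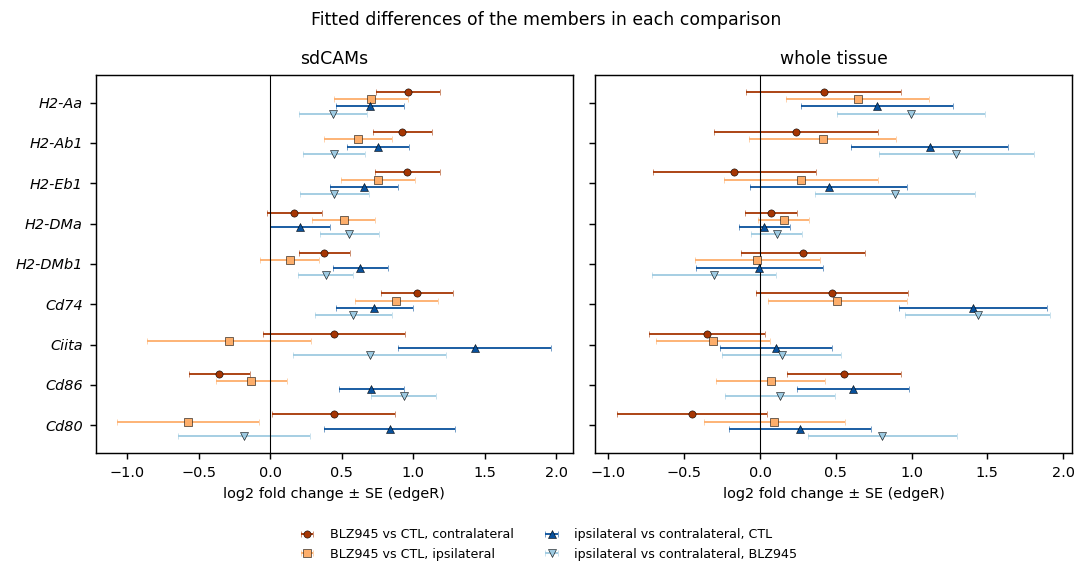
Fitted log2 fold change ± SE of each gene in the 4 comparisons between groups (edgeR), in sdCAMs on the left and whole tissue on the right; the vertical line marks no difference. In sdCAMs the BLZ945 against CTL points of H2-Aa, H2-Ab1, H2-Eb1 and Cd74 lie between 0.61 and 1.03, while those of Cd86 lie at -0.36 and -0.13.

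In the ipsilateral hemisphere the same 4 genes were higher in BLZ945 than in CTL sdCAMs, again without overlap. H2-Aa had 868, 1286 and 1145 CPM in CTL mice A2, A4 and B1, and 2082, 1681 and 1609.9 CPM in BLZ945 mice C3, C4 and D1. Cd74 had 3463, 4794 and 4792 CPM against 9205, 8460.0 and 6358 CPM. No BLZ945 library fell among the CTL libraries in either gene.

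The log2 fold changes in the ipsilateral hemisphere were 0.70 ± 0.26 for H2-Aa, 0.61 ± 0.24 for H2-Ab1, 0.75 ± 0.26 for H2-Eb1 and 0.88 ± 0.29 for Cd74 (SE), each with an edgeR adjusted p of 0.838. Here 4 of 9 genes did not overlap, against 3.10% of all genes, and 5 of 9, with H2-DMa as the fifth at 0.51 ± 0.22 (SE), had an unadjusted p under 0.05 and were higher, against 2.11%. edgeR called 0 genes higher (0%), with 1034 genes at an unadjusted p under 0.05 in either direction, and DESeq2 called 128 genes but none of the 9. Cd86 (log2 fold change -0.13 ± 0.25, SE), Ciita (-0.29 ± 0.57) and Cd80 (-0.58 ± 0.49) overlapped between treatments.

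In bulk libraries more class II RNA per cell and a larger share of cells with class II cannot be told apart. Markers of other cells moved with treatment in the contralateral sdCAM libraries, and their part in the result was not tested. The summed level of 4 choroid plexus markers was 35.5 to 8908 CPM in CTL and 1398 to 37096 CPM in BLZ945, that of 5 neutrophil markers 119 to 515 and 87.4 to 2800 CPM, and that of 4 monocyte markers 48.4 to 102 and 33.2 to 598 CPM. Mouse C3 had the lowest neutrophil and monocyte sums of the BLZ945 contralateral libraries and the highest H2-Aa, H2-Ab1, H2-Eb1 and Cd74. Its choroid plexus sum of 20010 CPM lay above those of C2 (1398 CPM) and D1 (5261 CPM) and below that of C4 (37096 CPM). The 7 markers of dendritic cells, which carry class II themselves, summed to 142 to 390 CPM in CTL and 137 to 300 CPM in BLZ945, and these ranges overlapped. Microglial markers were lower, at 13906 to 19252 CPM in CTL and 7234 to 13220 CPM in BLZ945. In the ipsilateral libraries the choroid plexus sum was 0.502 to 367 CPM in CTL and 199 to 1499 CPM in BLZ945, and the ranges of the choroid plexus, neutrophil and monocyte sums all overlapped between treatments.

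Genes that the study uses to tell HSC-derived from yolk sac-derived sdCAMs were set beside the class II genes. Ccr2, a chemokine receptor of monocytes, had 76.6, 47.6, 119.5 and 74.6 CPM in CTL and 292, 137, 167 and 313 CPM in BLZ945 contralateral libraries. Fxyd5 had 270.2, 359, 249 and 282 CPM against 632, 409.6, 701 and 581 CPM. Both HSC markers were without overlap, a pattern of 1.45% of all genes, with log2 fold changes of 1.51 for Ccr2 and 1.00 for Fxyd5 (edgeR adjusted p = 0.759 for both). Ipsilaterally Ccr2 had 256, 124 and 174 CPM in CTL and 173, 323 and 134 CPM in BLZ945 libraries, which overlapped (log2 fold change 0.18, edgeR adjusted p = 1). Fxyd5 had 337, 177 and 234 CPM against 448, 485 and 341 CPM, without overlap, a pattern of 3.10% of all genes (log2 fold change 0.77, edgeR adjusted p = 0.838).

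The yolk sac markers Lyve1 and Cd163, both surface receptors, had log2 fold changes of -1.12 and -1.78 at the same edgeR adjusted p, and Folr2 of 0.02. Ipsilaterally these values were -0.0035 for Lyve1, -1.01 for Cd163 and 0.60 for Folr2, none of them called. Between hemispheres all 3 yolk sac markers were called higher ipsilaterally in the average of both treatments, against 3.91% of all genes. Their log2 fold changes were 1.12 for Lyve1, 1.16 for Cd163 and 1.10 for Folr2 (edgeR adjusted p = 0.0180, 0.0346 and 0.0413). With macrophage scaling these became 0.50, 0.53 and 0.50 with 0 called, and under the block for the mouse only Lyve1 was called (0.96, edgeR adjusted p = 0.0272). The order of single libraries did not follow the class II genes. C3, the highest BLZ945 contralateral library for class II, had the lowest Ccr2 and Fxyd5 of its group. Across 14 sdCAM libraries, which share groups and scaling, the mean log2 level of H2-Aa, H2-Ab1, H2-Eb1 and Cd74 had a Pearson r of 0.68 with Ccr2, 0.31 with Fxyd5, 0.11 with Lyve1, -0.11 with Cd163 and 0.62 with Folr2.

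Ratios of counts within a library do not depend on scaling, and they were chosen after values had been seen. The ratio of H2-Aa to H2-Ab1 stayed between 0.523 and 0.689 in all 14 sdCAM libraries, that of H2-Eb1 to H2-Ab1 between 0.395 and 0.533, and that of Cd74 to H2-Ab1 between 1.94 and 3.07. Cd74 per H2-Ab1 was 2.09 to 2.61 in ipsilateral CTL and 2.71 to 3.07 in ipsilateral BLZ945 libraries, without overlap, whereas the contralateral ranges overlapped. Pairwise Pearson r among these 4 genes was 0.982 to 0.989 over the 14 libraries.

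The ligand Cd86 per H2-Ab1 was 0.279 to 0.588 in contralateral CTL and 0.129 to 0.187 in contralateral BLZ945 libraries, and 0.324 to 0.457 against 0.217 to 0.224 in the ipsilateral ones. The treatments did not overlap in either hemisphere. H2-DMb1 per H2-Ab1 was 0.0985 to 0.154 in CTL and 0.0750 to 0.0896 in BLZ945 libraries of both hemispheres, again without overlap, and H2-DMa per H2-Ab1 was 0.180 to 0.320 in contralateral CTL and 0.122 to 0.165 in contralateral BLZ945 libraries. Ipsilaterally H2-DMa per H2-Ab1 was 0.126 to 0.176 in CTL and 0.133 to 0.172 in BLZ945 libraries, and these overlapped. No test was run on these ratios, and the share of all genes with such ratios was not computed. H2-Ab1 itself was higher in every BLZ945 than in every CTL library of the same hemisphere. A gene without a treatment difference would therefore also tend to a lower ratio to H2-Ab1 in BLZ945 libraries.

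The hemisphere comparison asked what changed in sdCAMs on the lesioned side. Averaged over both treatments, H2-Ab1, Cd74 and Cd86 were higher in ipsilateral than in contralateral sdCAMs by 1.51-fold to 1.76-fold and were called. H2-Ab1 had a log2 fold change of 0.60 ± 0.15 (SE; edgeR adjusted p = 0.0169), Cd74 of 0.65 ± 0.19 (adjusted p = 0.0287) and Cd86 of 0.82 ± 0.16 (adjusted p = 0.00364). These were 3 of 9 genes, against 3.91% of all genes called higher.

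H2-Aa, H2-Eb1 and H2-DMb1 had adjusted p-values of 0.0322, 0.0382 and 0.0197 in edgeR, with log2 fold changes of 0.57, 0.55 and 0.51 that stayed under the fold threshold. Ciita had 1.06 ± 0.38 (SE; adjusted p = 0.0665), H2-DMa 0.38 ± 0.15 (adjusted p = 0.0879) and Cd80 0.32 ± 0.32 (adjusted p = 0.556). With the mouse as a block, since both hemispheres came from 1 mouse, only Cd86 was called (0.81, edgeR adjusted p = 0.0118), with H2-Ab1 at 0.57 (adjusted p = 0.0368) under the fold threshold and Cd74 at 0.58 (adjusted p = 0.0559). DESeq2's Wald test called Cd86 and Ciita in the average, and neither H2-Ab1 nor Cd74 (log2 fold changes of 0.52 and 0.58, the fold threshold being 0.59).

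These calls depended on the scaling. When libraries were scaled to the summed counts of 16 macrophage genes instead of TMM, the median of all genes shifted by -0.72, 0 of 9 genes were called, and the log2 fold change became -0.13 for H2-Aa, -0.10 for H2-Ab1, -0.15 for H2-Eb1 and -0.03 for Cd74, with Cd86 at 0.15. Border macrophage markers summed to 20909 to 36985 CPM in ipsilateral and 10709 to 26352 CPM in contralateral libraries, which overlapped, and in mice A2 and B1 the ipsilateral sum was the lower one. Endothelial markers summed to 20.8 to 95.4 against 419 to 1129 CPM, and oligodendrocyte markers to 60.1 to 415 against 401 to 4640 CPM. Choroid plexus markers summed to 0.502 to 1499 against 35.5 to 37096 CPM and neutrophil markers to 75.6 to 843 against 87.4 to 2800 CPM, and both overlapped. Microglial markers summed to 13664 to 28062 against 13906 to 19252 CPM in CTL and 9984 to 21496 against 7234 to 13220 CPM in BLZ945 libraries. The part of these shifts in the calls was not tested beyond that scaling. Without 1 mouse the count of called genes among the 9 ran from 1 (without A3, C3 or C4) to 7 (without D1), and in all 16 libraries it was 0.

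**Figure D3:**
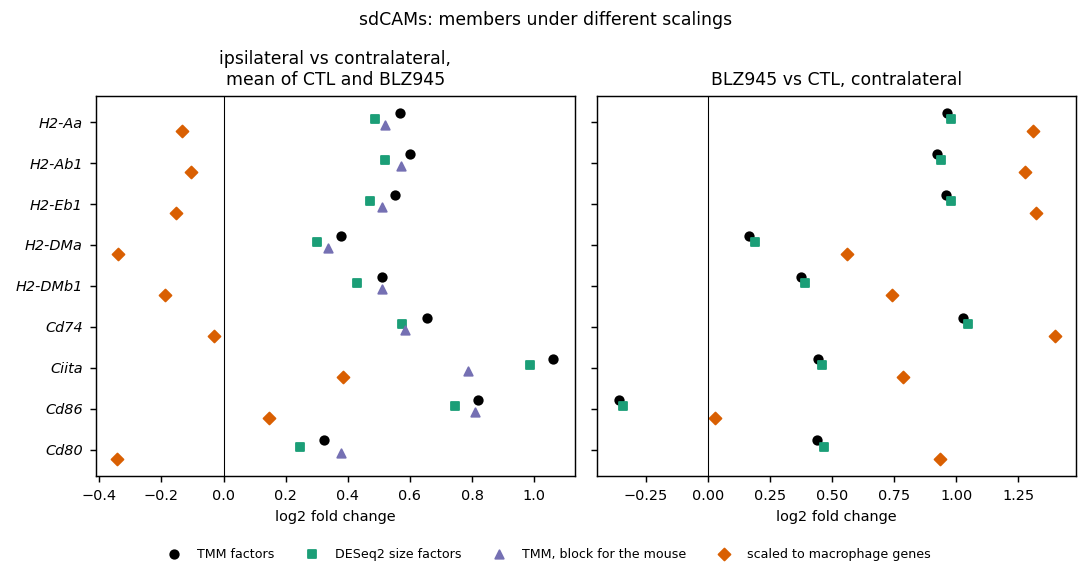
Log2 fold change of each gene in sdCAMs under TMM, DESeq2 size factors, TMM with a block for the mouse (hemisphere comparison only) and scaling to 16 macrophage genes; left, ipsilateral against contralateral over both treatments, right, BLZ945 against CTL in the contralateral hemisphere. Macrophage scaling moved the chains and Cd74 to between -0.15 and -0.03 on the left and to between 1.28 and 1.40 on the right.

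Within CTL mice, 7 of the 9 genes were higher in every ipsilateral than in every contralateral library, against 5.70% of all genes. The exceptions were H2-DMa and Cd80. Monocyte markers moved in the same direction without overlap, at 115 to 148 CPM ipsilaterally and 48.4 to 102 CPM contralaterally, and dendritic cell markers summed to 251 to 492 and 142 to 390 CPM. Their part in the result was not tested. H2-Ab1 had 1660.4, 2011 and 1834 CPM ipsilaterally against at most 1357 CPM contralaterally, and Cd86 had 759, 687 and 595 CPM against at most 552 CPM. The log2 fold changes were 0.75 ± 0.22 for H2-Ab1 (SE; edgeR adjusted p = 0.0815), 0.71 ± 0.23 for Cd86 (adjusted p = 0.115) and 1.43 ± 0.53 for Ciita (adjusted p = 0.170). edgeR called 0 of 9 higher, against 0.426% of all genes, whereas DESeq2 called H2-Ab1 and Cd86.

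Within BLZ945 mice Cd86 was called, and it was the only one of the 9 without overlap between hemispheres, a pattern of 7.44% of all genes. It had 745, 604 and 510.0 CPM in ipsilateral libraries of C3, C4 and D1 against 353, 323, 219 and 405 CPM contralaterally. The log2 fold change was 0.93 ± 0.23 (SE; edgeR adjusted p = 0.0287), and 1 of 9 genes called compared with 1.20% of all genes. The call was lost without C2 (adjusted p = 0.0520), C3 (0.184) or C4 (0.142), in all 16 libraries (0.842) and with macrophage scaling (log2 fold change 0.00414).

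The class II chains had smaller hemisphere differences in BLZ945 mice, with log2 fold changes of 0.44 ± 0.24 for H2-Aa, 0.44 ± 0.22 for H2-Ab1 and 0.45 ± 0.24 for H2-Eb1 (SE). Their edgeR adjusted p-values were 0.288, 0.245 and 0.281. Whether this response differed between treatments was tested as an interaction, and 0 genes (0%) were called in either direction, with 912 genes at an unadjusted p under 0.05 and 48 called by DESeq2. The 9 genes had log2 differences of responses between -1.02 for Cd80 and 0.34 for H2-DMa.

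Within single mice the hemisphere difference of the chains and Cd74 was positive in 3 of 3 CTL and 3 of 3 BLZ945 mice with both sdCAM libraries. These differences rest on TMM, and the share of all genes with such agreement was not computed. With macrophage scaling the fitted values of these genes were -0.50 to -0.35 in BLZ945 mice and stayed positive in CTL mice. Cd74 had a mean log2 difference of 0.56 ± 0.05 in CTL and 0.60 ± 0.55 in BLZ945 mice (SD, n = 3 each), without a test. Cd86 gave 0.61 ± 0.22 and 1.00 ± 0.59. The spread between mice was larger in the BLZ945 group for both.

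Other genes of the pathway were read from lists, and their hemisphere calls come from the fit that ignores the pairing of hemispheres. Of all genes, 3.91% were called higher in ipsilateral sdCAMs over both treatments. Of 7 antigen processing genes, 6 were called higher in ipsilateral sdCAMs over both treatments, among them Ctsb (log2 fold change 1.00), Lgmn (0.81) and Ctss (0.66), endosomal proteases that cut antigen or the invariant chain, and Ifi30 (0.71), a thiol reductase of the endosome (edgeR adjusted p = 0.00185, 0.00260, 0.0144 and 0.0491). Their median was 0.73, against 0.57 for the 9 class II genes and -0.16 for all genes, and with macrophage scaling it was 0.07 with 0 called. Of 16 regulators 3 were called, namely Spi1, a myeloid transcription factor (0.70), the interferon-γ receptor chain Ifngr1 (0.60) and the kinase Jak1 (0.64), and with macrophage scaling 0 were called higher and 2 lower. Of 6 genes of costimulation and turnover, Cd83 (0.99) and Marchf1 (0.79), the ligase that removes class II from the surface, were called, and 0 of 4 other class II chain genes tested and 0 of 9 class I genes were.

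Between treatments 0 genes of these lists were called in either hemisphere. In contralateral sdCAMs the median log2 fold change was 0.44 for the 9 genes, -0.17 for antigen processing, -0.15 for the regulators, 0.21 for class I presentation and 0 for all genes tested. With macrophage scaling, which shifted the median of all genes by 0.40 in this contrast, these medians were 0.94, 0.20, 0.24 and 0.59, so the sign of antigen processing and of the regulators turned.

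The genes whose log2 level followed the mean of H2-Aa, H2-Ab1, H2-Eb1 and Cd74 most closely over the 14 sdCAM libraries, among 11062 genes with a mean of at least 5 CPM, were Rab7b (Pearson r = 0.89), Mgl2 (0.88), Clec4b1 (0.88), Axl (0.87) and Gdf3 (0.85). Rab7b is a GTPase of late endosomes and Mgl2 and Clec4b1 are lectins of myeloid cells. Cyria (0.84), the class I gene H2-D1 (0.84), Csf2ra (0.84), Myadm (0.84) and Got1 (0.83) followed. These are descriptions over libraries that share groups.

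In whole tissue most of the class II genes were near the lower end of what the depth could measure. Cd74, at 19 to 288 counts per library, and H2-DMa, at 92 to 171, were less so. Per kb, the median over 16 libraries was 3.92 CPM for Cd74, 3.72 for H2-DMa, 1.28 for H2-Eb1, 1.04 for H2-Ab1 and 0.518 for H2-Aa. The level of H2-DMa is uncertain here too, since it overlaps Brd2 on the opposite strand in libraries without strand. H2-DMa had a Pearson r of -0.02 with Cd74 over the tissue libraries and of 0.70 over the sdCAM libraries. The part of Brd2 reads in it was not tested. H2-Aa had 8 to 74 counts per library, Ciita 4 to 18 and Cd80 2 to 24. A count of 3 corresponded to 0.234 to 0.321 CPM. Of 5 T cell markers in the tissue table, 3 (Cd3d, Cd3g, Cd8a) were at or under 3 counts in every library, and of 7 dendritic cell markers 2 (Cd209a, Xcr1) were. The others were detected, and the sums were 1.59 to 48.2 CPM for T cells and 15.6 to 28.2 CPM for dendritic cells.

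**Figure D4:**
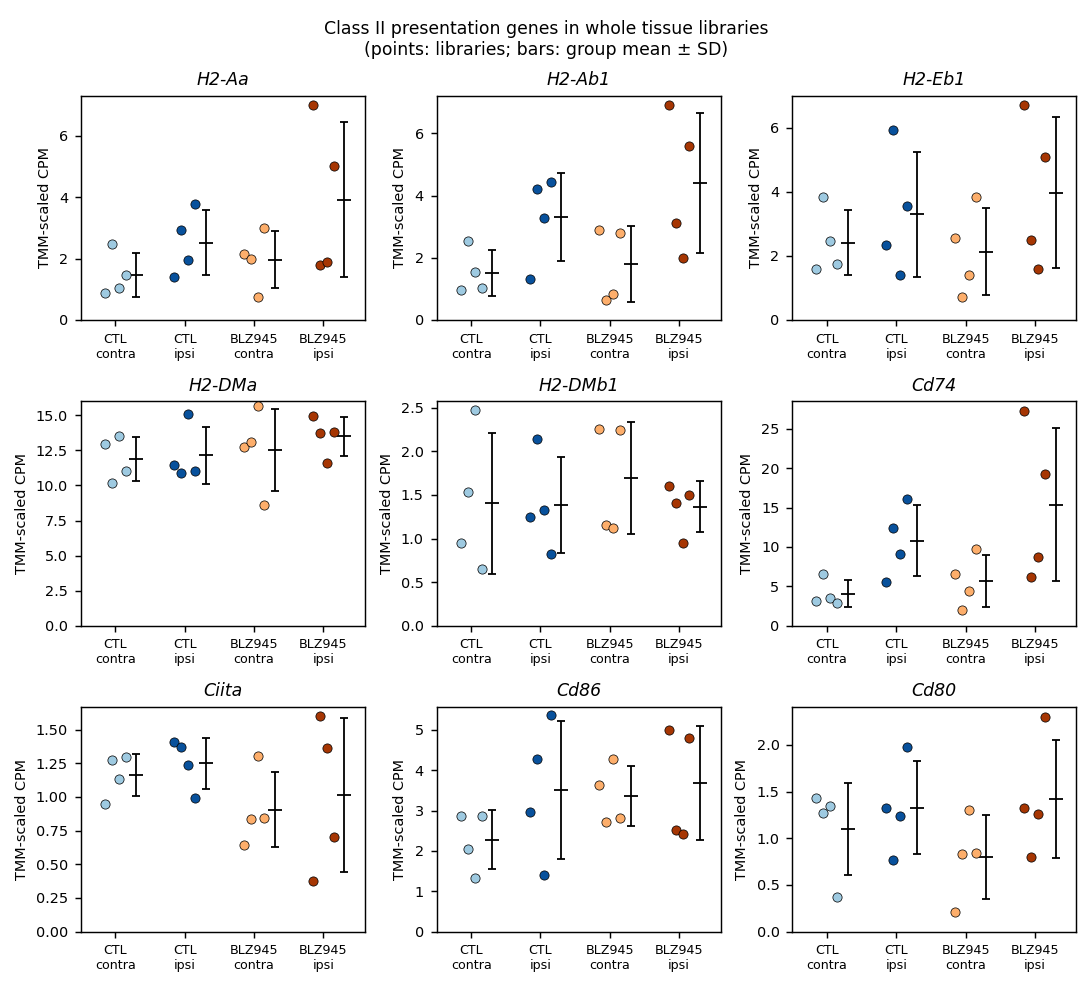
Level of each of the 9 genes in the 16 tissue libraries (TMM-scaled CPM, linear axes from 0), by treatment and hemisphere; points are libraries and bars the group mean ± SD. Cd74 reached 27.2 CPM in 1 ipsilateral BLZ945 library, and in none of the 4 comparisons between groups was a gene higher in every library of 1 group.

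Cd74 was higher in ipsilateral than in contralateral tissue over both treatments, by 1.42 ± 0.34 on the log2 scale (SE; edgeR adjusted p = 0.0287). CTL mice A2, A3, A4 and B1 had 3.17, 6.63, 3.51 and 2.96 CPM contralaterally and 5.62, 12.4, 9.11 and 16.1 CPM ipsilaterally. BLZ945 mice C2, C3, C4 and D1 had 6.54, 1.99, 4.37 and 9.74 CPM contralaterally and 27.2, 6.22, 8.72 and 19.3 CPM ipsilaterally. The groups overlapped, but within each mouse Cd74 was higher on the lesioned side, in 4 of 4 CTL and 4 of 4 BLZ945 mice.

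**Figure D5:**
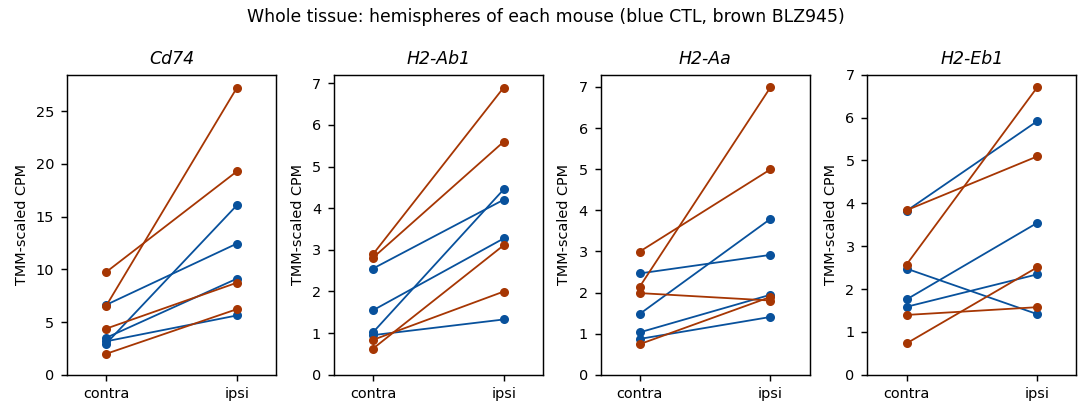
Cd74, H2-Ab1, H2-Aa and H2-Eb1 in whole tissue (TMM-scaled CPM, linear axes from 0), with a line joining the hemispheres of each mouse; blue is CTL and brown is BLZ945, 4 mice each. Cd74 and H2-Ab1 are higher on the ipsilateral side in all 8 mice.

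Cd74 was the 1 of 9 genes called in the average, against 1.93% of all genes. Within CTL mice 0 of 9 were called (0.443% of all genes) and within BLZ945 mice 0 of 9 (1.12%). With the mouse as a block, Cd74 was called in CTL (1.37, edgeR adjusted p = 0.00301) and in BLZ945 mice (1.41, adjusted p = 0.00104), H2-Ab1 in BLZ945 mice (1.35, adjusted p = 0.0118), and in the average Cd74 (1.39, adjusted p = 1.69e-05), H2-Ab1 (1.22, adjusted p = 0.000910) and H2-Aa (0.85, adjusted p = 0.0236).

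The chains gave smaller or less certain values without the block. The average log2 fold change was 1.21 ± 0.36 for H2-Ab1 (SE; edgeR adjusted p = 0.0922), 0.88 ± 0.35 for H2-Aa (adjusted p = 0.236) and 0.67 ± 0.37 for H2-Eb1 (adjusted p = 0.450). H2-Ab1 had 0.951, 2.55, 1.55 and 1.02 CPM contralaterally and 1.33, 4.20, 3.27 and 4.45 CPM ipsilaterally in CTL mice, higher on the lesioned side in 4 of 4. In BLZ945 mice it had 2.89, 0.627, 0.837 and 2.81 CPM against 6.90, 3.11, 2.00 and 5.59 CPM, also in 4 of 4. The remaining genes were not called, with average log2 fold changes of 0.07 ± 0.12 for H2-DMa, -0.15 ± 0.29 for H2-DMb1, 0.12 ± 0.27 for Ciita, 0.37 ± 0.26 for Cd86 and 0.54 ± 0.34 for Cd80 (SE).

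These tissue calls rested on the hemispheres given to mouse A3. With the hemispheres of the count table's column names instead, Cd74 had 1.10 in the average (edgeR adjusted p = 0.306) and, with the block added, 1.14 (adjusted p = 0.0471). The average call was also lost without A2, A4, B1, C2 or C4.

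0 of the 9 genes were without overlap between hemispheres, against 2.45% of all genes in CTL and 4.20% in BLZ945 tissue. BLZ945 and CTL tissue did not differ detectably for any of the 9, with log2 fold changes of -0.31 to 0.64 ipsilaterally and -0.45 to 0.55 contralaterally. edgeR called 0 genes higher (0%) in both hemispheres, where 858 ipsilateral and 616 contralateral genes had an unadjusted p under 0.05 in either direction and DESeq2 called 1 and 0. None of the 9 had an unadjusted p under 0.05 with a higher level, against 2.32% of all genes ipsilaterally and 1.31% contralaterally, and none was without overlap, against 1.15% and 1.20%. The interaction called 0 genes (0%) in tissue as well, with 386 at an unadjusted p under 0.05 and 0 called by DESeq2. Ccr2 was at most 0.857 CPM contralaterally and between 0.234 and 2.93 CPM ipsilaterally, and monocyte markers summed to 0 to 0.655 CPM contralaterally and 0.420 to 2.93 CPM ipsilaterally, values that moved with Cd74 and whose part was not tested.

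In tissue, 1 of 7 antigen processing genes (Ifi30, 0.87) and 1 of 16 regulators (Spi1, 1.03) were called higher in the average of both treatments. So were 3 of 9 class I genes, namely Tap1 (0.87), Psmb8 (0.82) and Nlrc5 (1.63), the class I transactivator. The edgeR adjusted p of these genes lay between 0.000453 and 0.0293, and 1.93% of all genes were called higher there. Nearly all calls over all genes in this average were lost with the count table's hemispheres for A3. Over the 16 tissue libraries H2-Ab1 and Cd74 had a Pearson r of 0.94, and the genes closest to the mean of the chains and Cd74, among 11784 genes, were Tnfrsf1b (r = 0.95), Hspg2 (0.94) and Thbs1 (0.93). Lyz2, a lysozyme of myeloid cells, was at 0.91.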

How the data were processed

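Bulk RNA-seq of 32 libraries was analysed from 2 tables of raw counts per gene that the authors deposited, 1 for sdCAMs and 1 for tissue, without normalization. Reads were aligned with STAR 2.7.11a and counted with featureCounts 2.0.8, per the labels. The genome build is named inconsistently in the sources, so genes were matched by symbol. The library kit does not mark strand. Samples were grouped by treatment and hemisphere from their labels, and replicates within a group were separate mice. P-values between treatments compare separate mice, but their spread is pooled over the libraries of both hemispheres. They too count the hemispheres of a mouse as independent. The main fit took both hemispheres of a mouse as independent libraries, so its p-values between hemispheres and for the interaction ignore the pairing. Only the replicate block includes it. No pair of libraries in a group agreed within sampling noise. The members and lists were chosen with earlier results of these data known.

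Genes with a summed count under 7 (sdCAMs) or 8 (tissue) were removed, leaving 18297 and 18968. edgeR 4.0.16 was fitted per table with TMM factors and a mean per group (R 4.3.3). The hemispheres were compared within each treatment and on average, the treatments within each hemisphere, and the responses to stroke by an interaction. The edgeR fit was tested on simulated data. CPM are TMM-scaled, log2 CPM used a prior count of 2, and a floor of 3 counts was 0.253 to 0.389 CPM in sdCAMs and 0.234 to 0.321 in tissue, counting error only. Genes named for likeness were the 10 of highest Pearson r among those with a mean of at least 5 CPM. The lists and markers came from textbook knowledge and the study. Hemispheres of a mouse are paired by design. The correlation of their deviations from group means was 0.0703 to 0.278 in sdCAMs and 0.353 to 0.734 in tissue. Alternatives were DESeq2 1.42.0 with its Wald test, its size factors in edgeR, no filter and filterByExpr, other fold thresholds, a replicate block, each mouse left out, all 16 sdCAM libraries, scaling to 16 macrophage genes, a prior count of 0.5, and A3 tissue hemispheres taken from the count table's column names. The last of these with the block was chosen after seeing the data.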

Additional observations from a re-analysis of the deposited data

Results flagged for a closer look

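In 4 of 54 groups of 4 libraries, 1 library lay far from the others by Dixon's criterion, which chance exceeds in about 1 of 20 groups. H2-DMb1 in BLZ945 contralateral sdCAMs had 127 CPM in mouse C4, with the nearest library at 187 CPM, and C4 was also the lowest of its group for the chains and Cd74. In tissue, H2-DMa of CTL ipsilateral mouse A4 had 15.1 CPM (nearest 11.5), Cd74 of CTL contralateral mouse A3 had 6.63 CPM (nearest 3.51), and Cd80 of CTL contralateral mouse B1 had 0.370 CPM (nearest 1.27). Mouse A3 is the one whose tissue hemispheres differ between the sample labels and the count table. The cause of these values was not tested.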

How the results depend on the processing

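In sdCAMs 600 of the log2 fold changes of the 9 genes under alternatives, the interaction aside, kept their direction and side of the threshold, 21 changed sign, 23 lost a call and 13 gained one, and in tissue these numbers were 590, 37, 6 and 6. The number of the 9 genes called in the sdCAM average was 3, and it was 2 with DESeq2's Wald test (Cd86 and Ciita, without H2-Ab1 and Cd74), 1 with DESeq2 size factors, 1 with the replicate block for the mouse, 0 in all 16 libraries, 0 with macrophage scaling, 6 without a fold threshold, 0 with a log2 fold change beyond 1, and 1 to 7 when each mouse was left out (1 without A3, C3 or C4, 7 without D1). In BLZ945 sdCAMs, with 1 called, it was 0 in all 16 libraries, with macrophage scaling and beyond a log2 fold change of 1, and 0 to 1 when each mouse was left out. DESeq2's Wald test called 2 in CTL sdCAMs and 4 between treatments contralaterally, against 0 in edgeR. In tissue, the block for the mouse called 1 in CTL, 2 in BLZ945 and 3 in the average, against 0, 0 and 1 without this pairing, DESeq2 called 2 in the average, the count table's hemispheres for A3 gave 0, and leaving out each mouse gave 0 to 1 (0 without A2, A4, B1, C2 or C4). Over all genes, sdCAM calls were 510 in CTL, 1027 in BLZ945 and 2745 in the average, with 264, 931 and 1814 under the block, 1775, 2462 and 3580 in DESeq2, 205, 428 and 1186 in all 16 libraries, and 548, 3707 and 5341 with macrophage scaling. Tissue calls were 84, 220 and 381, with 185, 414 and 459 under the block, 139, 349 and 444 in DESeq2, and 0, 6 and 1 with the count table's hemispheres for A3 (0, 185 and 146 with the block added).

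With macrophage scaling the log2 fold changes that turned sign were, in the sdCAM average, -0.13 for H2-Aa, -0.10 for H2-Ab1, -0.15 for H2-Eb1, -0.34 for H2-DMa, -0.19 for H2-DMb1, -0.032 for Cd74 and -0.34 for Cd80. In BLZ945 sdCAMs they were -0.50 for H2-Aa, -0.49 for H2-Ab1, -0.49 for H2-Eb1, -0.42 for H2-DMa, -0.55 for H2-DMb1, -0.35 for Cd74 and -0.23 for Ciita, in CTL -0.26 for H2-DMa, and between treatments contralaterally 0.028 for Cd86. This scaling shifted the median of all genes by -0.72, -1.01, -0.46 and 0.40 in these comparisons. In all 16 libraries H2-DMa turned to -0.17 in CTL and to -0.0023 in the average. Cd80 in BLZ945 sdCAMs had 0.15 under the block and -0.41 to 0.086 when each mouse was left out (positive without C2), H2-DMb1 between treatments ipsilaterally -0.025 to 0.29 (negative without C3), and H2-Eb1 in CTL tissue -0.078 with the count table's hemispheres for A3. In the tissue average, leaving out each mouse gave -0.27 to 0.066 for H2-DMb1 (positive without A4), -0.050 to 0.20 for Ciita (negative without C3) and -0.0030 to 0.17 for H2-DMa (negative without D1). The other tissue sign changes were in comparisons within 1 treatment or between treatments, with the most for H2-DMb1 in CTL (7 of 15 alternatives). Beyond the scaling itself, the cause of these changes was not tested. Mean differences per mouse moved by less than 1 SD with a prior count of 0.5. Counts were lowest for Ciita and Cd80 in sdCAMs, and in tissue every gene but H2-DMa had libraries with few counts. The part of depth in their spread was not tested.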
